A study of Rattus norvegicus with 20 samples.

Results

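Celecoxib at reference concentration 1 was compared with celecoxib at reference concentration 1/5, both given for 24 h to primary cultures of neonatal rat heart. The comparison takes in 6 of the 20 arrays of the series, chosen by their titles, with 3 arrays per concentration. The cultures had grown for 1 day in DMEM before the drug was added. The labels do not give the absolute concentration, a vehicle, the strain or the exact age of the neonates, and nothing in them tells if replicates came from separate cultures. A p-value here therefore measures the spread between arrays, which may be technical. Celecoxib at 1/25 for 24 h (3 arrays), the arrays of 6 h (3 for each of concentrations 1/5 and 1) and 2 untreated arrays with no stated time were used to place the values. The spread behind each p-value and standard error was taken from all 20 arrays, which include 3 of 1/25 at 6 h. RNA was labelled with Cy3 and read on single-colour Agilent arrays with 41012 probes.

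Celecoxib inhibits cyclo-oxygenase 2, the product of Ptgs2, which makes the prostaglandin precursor from arachidonic acid. Its sister enzyme is encoded by Ptgs1. In many cell types celecoxib at high concentration is also known to act apart from cyclo-oxygenase, through calcium release from the endoplasmic reticulum and the integrated stress response. In that response ATF4 is translated while general protein synthesis is slowed, and ATF4 then turns on genes of amino acid synthesis, amino acid uptake and tRNA charging.

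Levels are given as log2 of the processed signal relative to the 75th percentile of the same array. A level of 0 thus equals that percentile. Differences are concentration 1 minus 1/5, 3 arrays against 3. Their standard error is from limma, with the spread taken from all 20 arrays. Values per array run in the order of replicates 1, 2 and 3. Between 63.6% and 80.4% of probes per array were well above background, and 6.01% to 7.89% were saturated. All arrays of 24 h were scanned on the same day. Of the concentration 1 arrays, replicate 1 lay on slide 2 and replicates 2 and 3 on slide 3; of the 1/5 arrays, replicates 1 and 2 lay on slide 3 and replicate 3 on slide 4. Slide 3 thus holds both groups. Precision is limited by the number of arrays.

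Replicate 3 of concentration 1 stood apart from its group. Across genes its correlation with the 1/5 arrays was 0.967, 0.963 and 0.972, against 0.957 and 0.965 with replicates 1 and 2 of its own concentration. Replicates 1 and 2 correlated with each other at 0.971. Genes are not independent replicates, and the coefficients are a description of these libraries. The counts of genes, the genes that passed and the gene lists are therefore given with and without this array, as are several of the named genes. Since its likeness to the 1/5 arrays is what sets it apart, a larger difference without it is no independent evidence. On the tags CB544780 and AA997228 it read with its own concentration, at -3.75 and 1.72. On the tag BI296804 it lay closest of its group to the 1/5 arrays. These tags passed in a comparison that includes this array, so their values describe it and are not a test. Whether arrays had been exchanged was not tested.

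**Figure D1:**
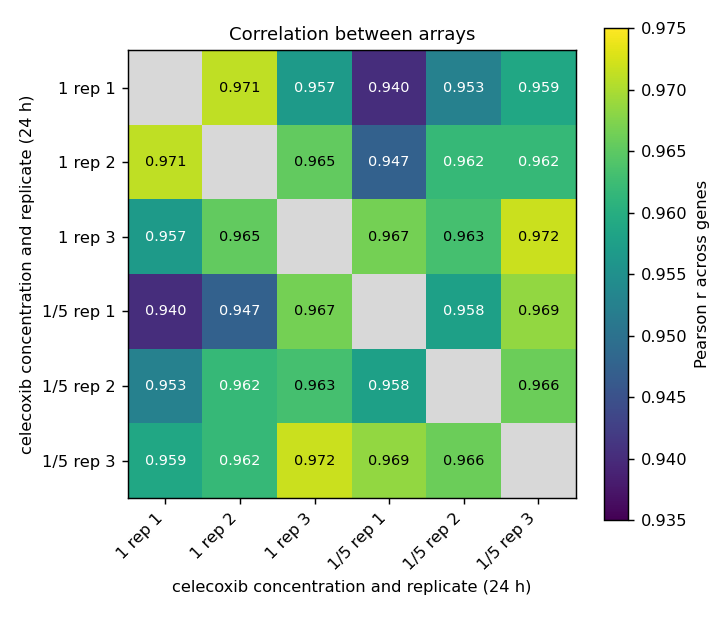
Pearson correlation across genes between the 6 arrays of 24 h, with concentration 1 before 1/5 on both axes; the diagonal is left grey. Replicate 3 of concentration 1 reaches 0.972 with replicate 3 of 1/5 and 0.957 with replicate 1 of its own concentration.

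The labels call the cells cardiomyocytes, and this was checked against marker genes. All 11 cardiomyocyte markers (Myh6, Myh7, Tnnt2, Tnni3, Actn2, Ryr2, Nppa, Myl2, Myl7, Pln and Ttn) were well above background on each of the 6 arrays, as did all 8 fibroblast markers and the 5 smooth muscle markers on the array. Of 8 macrophage and leukocyte markers, 7 were well above background on all 6 arrays. Of 8 endothelial markers 4 were kept, and 3 of these were well above background on all 6 arrays. Tek, Tie1, Vwf and Emcn were not kept. The epicardial and neural crest list kept 5 of 8 markers, 4 of them well above background on all 6 arrays. Wt1, Krt19 and S100b were not kept. Of 5 erythroid markers on the array 4 were kept, without Hbb, and all 4 were well above background on all 6 arrays. Signal of this strength was common, as 25445 of the 41012 probes reached it on each of the 6. These counts alone are therefore weak evidence for any cell type, and which types the cultures held was not tested. Fewer cells of a type cannot be told apart from less RNA per cell.

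Between the concentrations 4 of 27658 genes passed an adjusted p of 0.05 (limma, Benjamini-Hochberg), which is 0.0145% of the genes tested. Of these, 2 were higher at concentration 1 (0.00723%) and 2 were lower (0.00723%). An unadjusted p below 0.05 was found for 2375 genes (8.59%), 1165 of them higher (4.21%) and 1210 lower (4.37%). The values of the groups did not overlap in 4313 genes (15.6%), 1906 of them higher (6.89%) and 2407 lower (8.7%). The median difference of all genes was -0.04. Without replicate 3 of concentration 1, 52 of 27653 genes passed (0.188%), 10 higher (0.0362%) and 42 lower (0.152%), and all 4 genes were among them. Within slide 3, with 2 arrays per concentration, 0 genes passed in limma and 1547 had an unadjusted p below 0.05. With the spread taken from the 6 arrays alone, or from the 9 arrays of 24 h, 0 genes passed as well.

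**Figure D2:**
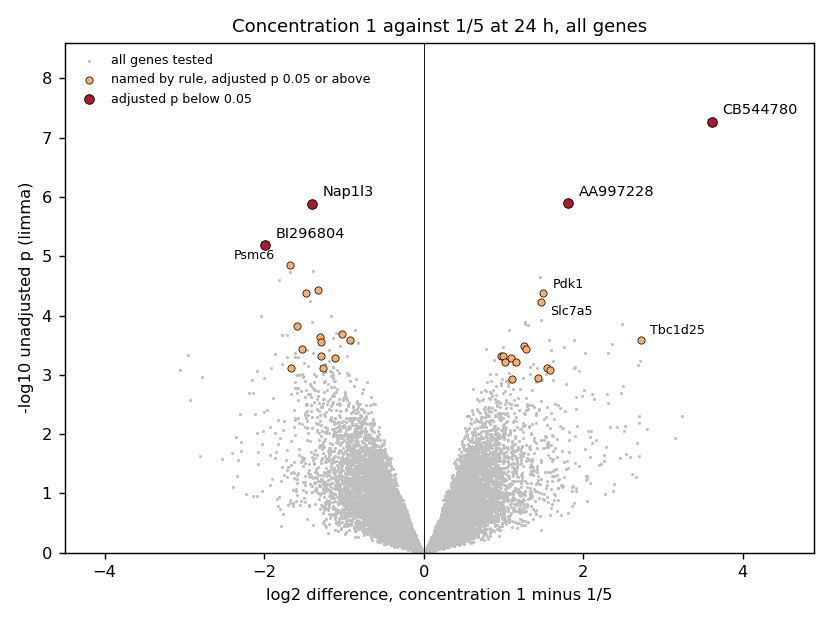
Log2 difference of each gene (x axis, concentration 1 minus 1/5) against -log10 of its unadjusted p in limma (y axis). Red points are the 4 genes with an adjusted p below 0.05, orange points are the genes named by rule that did not pass, and grey points are all 27658 genes tested.

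Only Nap1l3 among the 4 genes has a gene symbol. The other three are known by expressed sequence tags, short reads of cDNA clones, that carry no gene name in the array annotation. Their probes of 60 bases are printed because they are the only identity these transcripts have here. Coordinates follow rn3, the build named in the file headers, and no gene annotation of that build was used.

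CB544780, chrX:82666713-82666772: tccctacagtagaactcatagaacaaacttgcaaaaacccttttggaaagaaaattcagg
AA997228, chr10:871929-871988: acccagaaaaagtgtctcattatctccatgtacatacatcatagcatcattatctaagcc
Nap1l3, chrX:112318425-112318484: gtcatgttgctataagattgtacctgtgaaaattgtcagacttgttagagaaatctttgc
BI296804, chr15:21238270-21238329: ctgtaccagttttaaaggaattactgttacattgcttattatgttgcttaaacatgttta

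The tag CB544780 was higher at concentration 1. Its levels were -3.84, -3.46 and -3.75 at concentration 1, against -7.50, -8.03 and -6.35 at 1/5, where it was not well above background on any array. With the lowest reliably detected signal of those arrays as a floor, it was at least 3.08-fold higher at concentration 1 (adjusted p = 0.00149 in limma, 0.00503 without replicate 3 of concentration 1). At 1/25 its mean level was -6.50, and on the untreated arrays it was -3.01. The groups of concentration 1 and 1/5 lay far apart, and concentration 1 was close to the untreated arrays.

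The tag AA997228 was also higher at concentration 1, with levels of 1.85, 2.08 and 1.72 at concentration 1 and 0.29, -0.01 and -0.06 at 1/5. The difference was 1.81 ± 0.24, or 3.51-fold (adjusted p = 0.012 in limma). Without replicate 3 of concentration 1 it was 1.89 (adjusted p = 0.0161). Its mean level was 0.02 at 1/25 and 1.69 on the untreated arrays. Both lower concentrations thus lay below concentration 1, which again lay next to the untreated arrays. Against 1/25 in the same fit, AA997228 (1.87 ± 0.24) and CB544780 (2.82 ± 0.37) were the 2 genes of 27659 with an adjusted p below 0.05 (0.00723%), and 1353 had an unadjusted p below 0.05 (4.89%). That comparison shares the concentration 1 arrays.

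Nap1l3, a member of the nucleosome assembly protein family of histone chaperones, was lower at concentration 1. Its levels were -2.35, -2.76 and -2.32 at concentration 1, against -1.05, -1.04 and -1.13 at 1/5. The difference was -1.40 ± 0.18, or 2.64-fold lower (adjusted p = 0.012 in limma). Mean levels at 1/25 (-1.74) and on the untreated arrays (-1.83) lay between those of the 2 groups. The difference of Nap1l3 was -1.48 without replicate 3 of concentration 1 (adjusted p = 0.0161) and -1.50 within slide 3 (adjusted p = 0.857).

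The tag BI296804 was lower at concentration 1, with levels of -0.48, -1.26 and 0.18 at concentration 1 and 1.40, 1.39 and 1.60 at 1/5. The difference was -1.99 ± 0.30 (adjusted p = 0.0454 in limma), and its replicate 3 at concentration 1 lay closest to the 1/5 arrays. Without that replicate the difference was -2.34 (adjusted p = 0.00503). The probe lies between both probes of Psmc6 on the same chromosome, with its coordinates listed in the opposite order. Psmc6 encodes an ATPase subunit of the regulatory particle of the proteasome.

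Psmc6, brighter probe, chr15:21238398-21238457: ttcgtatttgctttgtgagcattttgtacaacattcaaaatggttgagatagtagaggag
Psmc6, second probe, chr15:21238124-21238183: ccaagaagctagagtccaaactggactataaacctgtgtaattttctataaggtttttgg

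Psmc6 levels were 0.66, 0.60 and 1.81 at concentration 1, against 2.77, 2.71 and 2.62 at 1/5, where 2 of the 3 arrays were saturated, so the difference of -1.68 ± 0.27 is compressed (adjusted p = 0.0737 in limma). The second probe read -0.54 ± 0.26. Without replicate 3 of concentration 1 the difference of the brighter probe was -2.07 (adjusted p = 0.0017). The probe of BI296804 and the brighter Psmc6 probe had the same order of groups at 24 h, with 1/5 highest. Of the 31 proteasome subunits tested, 14 were higher and 17 lower, with a median of -0.04, as over all genes.

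Over the alternatives tried, CB544780 passed in 16 of 20, Nap1l3 in 11 of 21, AA997228 in 10 of 21 and BI296804 in 6 of 21. None changed direction, but their groups do not overlap, so leaving out arrays could not turn them. With slide as a fixed term in the 9 arrays of 24 h none of the 4 passed in limma, with adjusted p between 0.174 and 0.535. That fit has 4 residual degrees of freedom.

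Beyond these, 28 genes with a symbol were named by rule, 14 in each direction, as those with the smallest p among genes whose groups did not overlap and whose probe was well above background on each of the 6 arrays. Nap1l3 is one of them, and the other 27 did not pass (adjusted p from 0.0737 to 0.256 in limma), so their values are given as measured. All 28 kept their direction within slide 3 and under each of 21 alternatives. As their groups were required not to overlap, leaving out arrays could not turn them, so this is no independent evidence.

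Among the genes that read higher at concentration 1, Slc7a5 and Pdk1 had the smallest p. Slc7a5 encodes the light chain of the L-type transporter of large neutral amino acids and is a known target of ATF4. Its levels were 1.07, 1.49 and 0.83 at concentration 1, against -0.37, -0.23 and -0.45 at 1/5. The difference was 1.48 ± 0.27 (adjusted p = 0.119 in limma), and without replicate 3 of concentration 1 it was 1.63 (adjusted p = 0.0496). Its mean was -0.24 at 1/25 and 1.51 on the untreated arrays, so that both lower concentrations read below concentration 1 and the untreated arrays above it.

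Pdk1 encodes a kinase that inactivates pyruvate dehydrogenase. It read -1.27, -1.69 and -1.20 at concentration 1 and -3.35, -2.80 and -2.52 at 1/5, a difference of 1.50 ± 0.27 (adjusted p = 0.0969 in limma) that was 1.41 without replicate 3 of concentration 1 (adjusted p = 0.0721). For Pdk1 the 1/25 arrays, at -1.52, lay next to concentration 1, and the 1/5 arrays stood apart. The largest difference among the 28 was that of Tbc1d25, a GTPase-activating protein for Rab proteins of autophagosomes. It read -0.54, -0.88 and -0.63 at concentration 1, against -4.17, -2.72 and -3.35 at 1/5 (2.73 ± 0.58, adjusted p = 0.197).

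The remaining higher genes had differences of 0.97 to 1.59. Ripk3, a kinase of necroptosis, differed by 1.26 ± 0.27, and Cdc37, which brings kinases to Hsp90, by 1.59 ± 0.38. Elk1, a transcription factor of the serum response, differed by 1.16 ± 0.27 on its brighter probe and by 0.08 ± 0.41 on the other. Raly, an RNA-binding protein, read 1.10 ± 0.25 and 0.46 ± 0.43 on its probes. The others were Ephb6, an Eph receptor without kinase activity, Pnpla6, a lysophospholipase whose second probe read 0.21 ± 0.34, Chst10, a sulfotransferase, and Abr, Lysmd1, Mllt11 and Tm7sf3.

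Among the genes that read lower, Kidins220, a membrane scaffold of neurotrophin signalling, had levels of -1.50, -1.41 and -1.41 at concentration 1 and 0.02, 0.12 and -0.50 at 1/5. The difference was -1.32 ± 0.23 (adjusted p = 0.0969 in limma). Its mean at 1/25 was -1.35, next to concentration 1. Mospd2, a tether of the endoplasmic reticulum to other organelles, read 0.19, -0.34 and 0.69 at concentration 1 and 1.81, 1.65 and 1.50 at 1/5 (-1.47 ± 0.26); of its other probes, one read -1.88 ± 0.35 and one 0.04 ± 0.32. The probes of this gene therefore disagree.

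Ern1, which encodes the endoplasmic reticulum stress sensor IRE1, read -2.14, -1.92 and -1.56 at concentration 1, against -0.53, -0.85 and -0.36 at 1/5 (-1.29 ± 0.28, adjusted p = 0.206). Utp25, a factor of ribosome assembly, differed by -1.66 ± 0.40, and Ppp4r3a, a subunit of protein phosphatase 4, by -1.59 ± 0.32. Khdrbs3, a splicing regulator, differed by -1.30 ± 0.27, and Rybp, a component of polycomb repressive complexes, by -0.92 ± 0.19. Taf15, an RNA-binding protein, differed by -1.53 ± 0.33 with 1 value missing among the 1/5 arrays. Tenm4, Pabir2, Lrrc40 and Dnaaf8 make up the rest, at -1.03 to -1.28. Other probes of Ppp4r3a, Rybp, Tenm4 and Lrrc40 read nearer to 0 or on the other side of it.

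Most of the 28 genes did not follow the order of the concentrations. In 26 the mean at 1/25, the lowest concentration, lay between those of concentration 1 and 1/5, and in Lysmd1 and Abr it lay beyond 1/5. Over all 28 it was nearer to concentration 1 in 16 and nearer to 1/5 in 12. The untreated mean was nearer to concentration 1 in 22 of 28 and nearer to 1/5 in 6. These genes were chosen for a large difference between concentration 1 and 1/5, so the counts describe them and are not a test. Against 1/25 in the same fit, 0 of 27661 genes passed for 1/5 in limma (0%), with 2005 at an unadjusted p below 0.05 (7.25%).

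**Figure D3:**
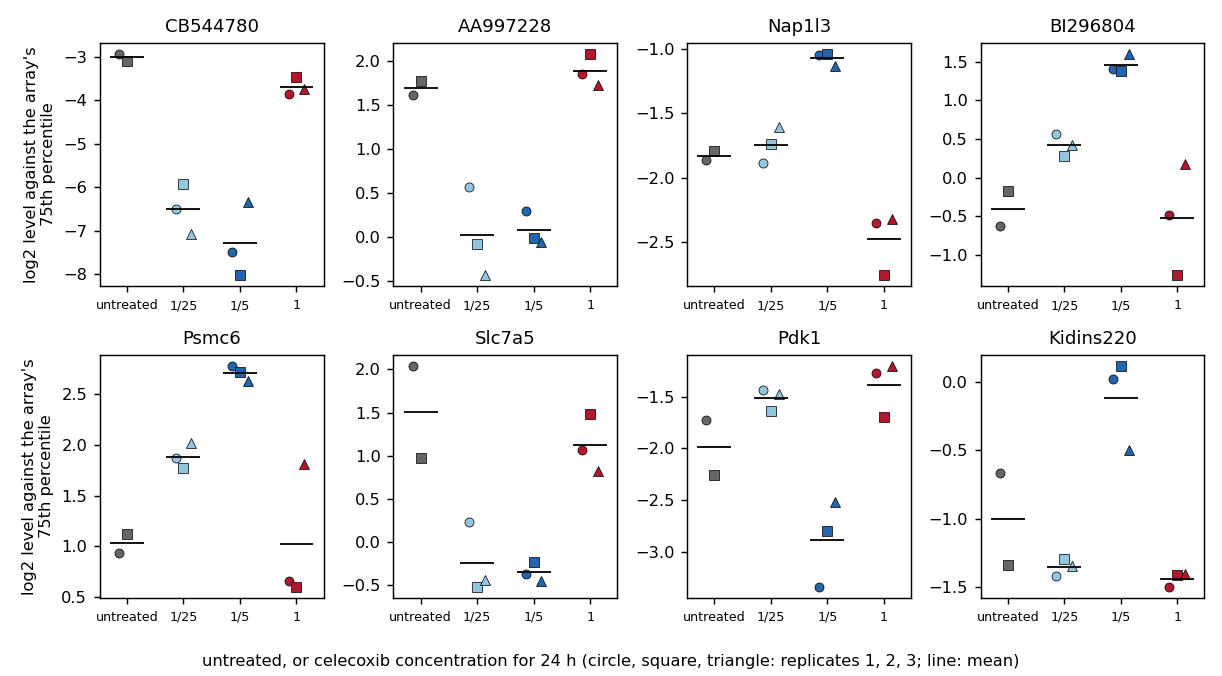
Log2 level relative to the array's 75th percentile of 8 genes on the untreated arrays and after 24 h of celecoxib at 1/25, 1/5 and 1, with each array as a point and the mean as a line. For Psmc6, BI296804, Nap1l3 and Kidins220 the 1/5 arrays are all above those of the other groups, and for CB544780 and AA997228 concentration 1 lies with the untreated arrays.

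Without replicate 3 of concentration 1, 22 of the 52 genes that passed have a symbol, and 8 of these are among the 28 named (Nap1l3, Psmc6, Khdrbs3, Mospd2, Pabir2, Ppp4r3a, Tm7sf3 and Slc7a5). Some others are named here after their values were seen. Tnnc1, the calcium-binding subunit of cardiac troponin, read 0.83, 1.52 and 2.42 at concentration 1 and 2.80, 2.72 and 2.62 at 1/5. Its difference was -1.12 ± 0.29 over all 6 arrays (adjusted p = 0.281 in limma) and -1.53 without replicate 3 (adjusted p = 0.0198), and 2 of the 1/5 arrays were saturated. Hspa4, a cytosolic co-chaperone of the heat shock protein family, read 0.24, -0.61 and 1.24 at concentration 1 and 1.72, 1.49 and 1.62 at 1/5. In both genes replicate 3 lay nearest to the 1/5 arrays. Id2, an inhibitor of helix-loop-helix factors, and Ccl20, a chemokine, differed by -1.45 ± 0.39 and -1.54 ± 0.41 over all 6 arrays, and by -1.92 and -2.03 without replicate 3. Ccl20 was well above background on 1 concentration 1 array and 2 of the 1/5 arrays.

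The pathways were described through 36 gene lists, 29 of pathways and 7 of cell type markers, by the count of members higher or lower and the median difference beside that of all genes (12793 of 27658 higher, or 46.3%, median -0.04). No list had a member with an adjusted p below 0.05. For 10 lists the median lay at least 0.15 from that of all genes. The members of a list share arrays and are not replicates, and the lists were not tested as sets.

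Neither cyclo-oxygenase gene passed. Ptgs1 had levels of 1.50, 1.76 and 1.63 at concentration 1, against 1.42, 1.32 and 1.16 at 1/5 (0.33 ± 0.20, adjusted p = 0.691 in limma). Ptgs2 had levels of -3.72, -4.18 and -3.23 at concentration 1 and -3.77, -4.15 and -4.20 at 1/5 (0.33 ± 0.35, adjusted p = 0.812). The arrays of Ptgs1 did not overlap, while those of Ptgs2 did. Of 12 prostanoid genes tested, 8 were higher and 4 lower, with a median of 0.23, and none had an unadjusted p below 0.05. The list levels overlapped, with 0.05, -0.08 and 0.11 at concentration 1 and -0.20, 0.15 and -0.25 at 1/5. The widest difference was that of Ptger1, a prostaglandin E2 receptor (1.86 ± 0.99), which was well above background on 1 of the 3 1/5 arrays. Ptges and Ptgds, synthases of prostaglandins E2 and D2, differed by -0.36 ± 0.29 and 0.42 ± 0.38. The median of the list was 0.10 without replicate 3 of concentration 1, 0.12 without replicate 1 of concentration 1 and 0.02 within slide 3, where 6 genes were higher and 6 lower.

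In the ATF4 and integrated stress response list, 19 of 26 genes were higher and 7 lower, with a median of 0.22. An unadjusted p below 0.05 was reached by 4 genes, all higher, which is 15.4% of the list against 4.21% of all genes. The groups did not overlap in 5 genes, all higher (19.2% of the list, against 6.89% of all genes): Slc7a5, Atf3, Aldh1l2, Trib3 and Gdf15. Atf3, a stress-induced transcription factor, read -0.25, -0.24 and -0.74 at concentration 1, against -1.25, -1.11 and -1.46 at 1/5 (0.86 ± 0.30, adjusted p = 0.417 in limma). Shmt2 and Aldh1l2, enzymes of mitochondrial one-carbon metabolism, differed by 0.67 ± 0.24 and 0.65 ± 0.24 (adjusted p of 0.43 and 0.464). Trib3, a pseudokinase induced by ATF4, differed by 0.50 ± 0.23, and Slc3a2, the heavy chain that pairs with Slc7a5, by 0.58 ± 0.31.

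Other members read lower or near 0. Asns, asparagine synthetase, read 0.22, 0.71 and 0.64 at concentration 1 and 1.08, 1.11 and 0.54 at 1/5 (-0.38 ± 0.30). Nupr1, a stress-induced nuclear protein, differed by -0.58 ± 0.29. Ddit3, the transcription factor CHOP, differed by 0.30 ± 0.32. The Atf4 probe was saturated on all 6 arrays, so its difference of -0.15 ± 0.19 says little about the mRNA, and ATF4 is regulated at translation.

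The level of this list on an array, taken as the median over members of the level minus its mean over the 6 arrays, was 0.23, 0.23 and 0.07 at concentration 1 and -0.21, -0.02 and -0.07 at 1/5. The groups did not overlap, and replicate 3 of concentration 1 lay nearest to 1/5. Among single genes the groups did not overlap in 15.6%, so this is a description of the list and not a test. The median difference was 0.30 without that replicate, 0.14 without replicate 1 of concentration 1 and 0.24 within slide 3. It was 0.28 for concentration 1 against 1/25 and 0.08 for 1/5 against 1/25, comparisons that share arrays with this one, and 0.12 for concentration 1 against 1/5 at 6 h.

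The cytosolic aminoacyl-tRNA synthetases charge tRNAs with their amino acids, and 14 of 19 were higher and 5 lower, with a median of 0.23. An unadjusted p below 0.05 was found for 3 genes higher (15.8%, against 4.21% of all genes) and 1 lower (5.26%, against 4.37%). The groups did not overlap in 2 higher genes (10.5%, against 6.89%) and 1 lower (5.26%, against 8.7%). The median was 0.27 without replicate 3 of concentration 1, 0.11 without its replicate 2, 0.37 without replicate 2 of 1/5 and 0.13 without replicate 3 of 1/5. Qars1 read 0.32, -0.03 and -1.03 at concentration 1 and -1.22, -0.63 and -1.21 at 1/5 (0.77 ± 0.33). Aars1 read 0.00, -0.36 and -0.84 at concentration 1 and -1.28, -0.55 and -1.02 at 1/5 (0.55 ± 0.23), and Sars1 differed by 0.69 ± 0.31. In these 3 genes replicate 3 of concentration 1 lay among the 1/5 arrays. The list level was 0.19, 0.22 and -0.01 at concentration 1, against -0.15, 0.02 and -0.20 at 1/5.

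The promoters of both lists were searched for the letters TGATGNAA, a form of the C/EBP-ATF response element that ATF4 binds, on both strands of the 300 bases around each gene's start in RefSeq (250 before, 50 after, build GRCr8). They were found in 1048 of 27457 rat promoters (3.82%), in 5 of the 24 stress response genes with a promoter in the table (20.8%) and in 7 of the 16 synthetases with one (43.8%). The windows below show those of 2 synthetases and 2 stress response genes, with the motif in capitals. In these 4 windows the capitals are the reverse complement of the motif.

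Tars1, chr2:62114811-62114840, minus strand: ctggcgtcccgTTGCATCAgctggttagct
Cars1, chr1:208225334-208225363, minus strand: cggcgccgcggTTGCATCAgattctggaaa
Trib3, chr3:161275536-161275565, minus strand: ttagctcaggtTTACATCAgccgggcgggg
Chac1, chr3:126795953-126795982, plus strand: cttctccgccgTTGCATCActcctgctagg

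The 7 synthetases with the motif had differences of 0.00 to 0.55 and a median of 0.28, and the 9 without it a median of 0.23. The 5 stress response genes with it had a median of 0.09, and the 19 without it 0.21. The presence of these letters thus did not go with a larger difference in the stress response list. A match is a description of the sequence and not evidence of binding in these cells.

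**Figure D4:**
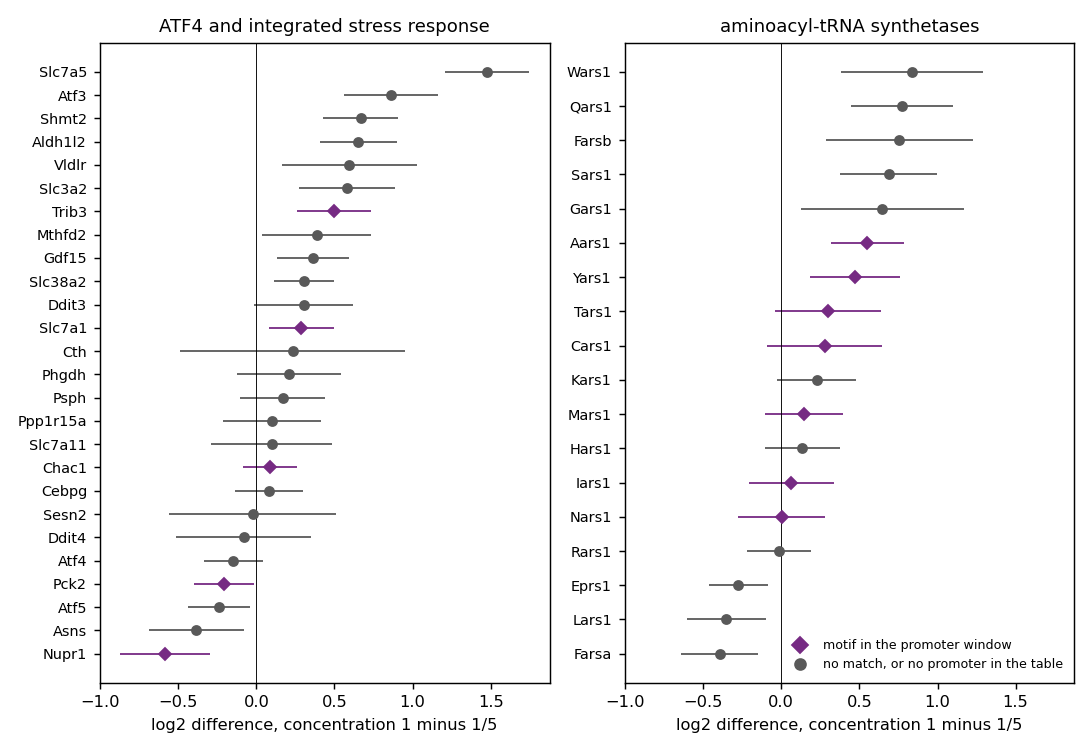
Log2 difference with its standard error from limma for genes of the ATF4 and stress response list (left, 26 genes) and the cytosolic aminoacyl-tRNA synthetases (right, 18 of 19 genes). Slc7a5 has the largest difference of the left panel at 1.48 and Wars1 of the right panel at 0.84.

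In the glycolysis and hypoxia list 15 of 27 genes were higher, with a median of 0.27, and the direction was mixed. Beside Pdk1, Pfkl, a phosphofructokinase, differed by 0.89 ± 0.37 and Slc2a4, the insulin-responsive glucose transporter, by 0.92 ± 0.42. Gapdh read 0.40, 1.30 and 1.42 at concentration 1 and 1.92, 2.20 and 1.61 at 1/5 (-0.87 ± 0.32), and its second probe read -0.24 ± 0.28. The second probe of Slc2a4 read 0.21 ± 0.57. The list median was 0.06 within slide 3, 0.17 without replicate 3 of concentration 1, 0.13 without its replicate 1 and 0.08 without replicate 1 of 1/5.

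Of the 32 DNA replication genes 22 were higher and 10 lower, with a median of 0.23. The groups did not overlap in 7 higher genes (21.9%, against 6.89% of all genes) and 1 lower (3.1%, against 8.7%). By unadjusted p below 0.05 in limma, 2 were higher (6.25%, against 4.21%) and 1 lower (3.1%, against 4.37%). Pola1, the catalytic subunit of DNA polymerase alpha, read -3.36, -3.84 and -4.11 at concentration 1 and -5.44, -5.34 and -6.21 at 1/5, where it was well above background on 1 of 3 arrays (1.89 ± 0.65, adjusted p = 0.417). Its second probe read 0.81 ± 0.59. Prim1, a primase subunit, differed by 0.55 ± 0.22 on its brighter probe and 0.67 ± 0.23 on the other. Rfc5, a subunit of the clamp loader, had the opposite direction at -1.12 ± 0.52. Cdt1, which licenses replication origins, differed by 0.90 ± 0.47. At 6 h the median of the list for the same concentrations was -0.27, on arrays of which the 1/5 ones were all scanned on the other day. The median at 24 h was 0.26 without replicate 3 of concentration 1, and 0.15 both without its replicate 1 and within slide 3. Mitosis genes had a median of -0.11, with 12 of 34 higher.

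Among 29 potassium and sodium channel genes and connexins 17 were higher, with a median of 0.17 that was 0.02 within slide 3 and 0.13 without replicate 3 of concentration 1. It was 0.09 without its replicate 2, 0.09 without replicate 1 of 1/5 and -0.08 without replicate 3 of 1/5, and -0.01 over genes well above background on all 6 arrays. Gja5, connexin 40 of atrial and conduction cells, read -0.23, 0.12 and -0.86 at concentration 1 and -1.22, -1.71 and -1.30 at 1/5 (1.09 ± 0.29, adjusted p = 0.297). Scn4b, a sodium channel subunit, differed by 0.59 ± 0.26 on its brighter probe and 0.04 ± 0.32 on the other, and Kcnj2, the inward rectifier of the resting potential, by -0.70 ± 0.31. Kcnip2, a subunit of transient outward channels, was well above background on 2 of the 3 1/5 arrays and on no concentration 1 array, which makes it at least 1.78-fold lower at concentration 1 (adjusted p = 0.417 in limma).

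The cardiomyocyte markers and the ribosomal proteins read lowest on replicate 1 of concentration 1. The level of the 11 cardiomyocyte markers was -0.80, -0.13 and 0.28 at concentration 1, against 0.22, 0.35 and 0.22 at 1/5, and their summed signal, in units of the 75th percentile, was 19.7, 30.9 and 39.7 at concentration 1 and between 37.5 and 41.8 at 1/5. Replicate 1 of concentration 1 was lowest, replicate 2 also lay below the 1/5 arrays, and replicate 3 lay with them. Nppa, atrial natriuretic peptide, read -0.94, 0.13 and 1.19 at concentration 1 and 1.22, 0.89 and 1.12 at 1/5 (-0.95 ± 0.44), and Pln, the inhibitor of the calcium pump, differed by -0.68 ± 0.31. Myh6, the alpha myosin heavy chain, differed by -1.05 ± 0.60 and Tnni3, cardiac troponin I, by -0.59 ± 0.34. Of these markers 7 were lower and 4 higher, with a median of -0.43 that was -0.12 without replicate 1 and -0.58 without replicate 3. The members named are those with the smallest p and all read lower, while the highest difference of a marker was 0.24. On at least 1 array 3 markers were saturated. The 8 others had a median of 0.03, with 4 lower. Of the 28 sarcomere genes 14 were higher, with a median of -0.01.

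The 52 cytosolic ribosomal proteins had 46 lower members and a median of -0.22. Their list level was -0.56, 0.05 and 0.12 at concentration 1 and 0.20, 0.04 and 0.15 at 1/5. The count of lower members rested on replicate 1: without it 19 were higher, against 6 with it, and the median was -0.05. The median was -0.34 without replicate 2 of concentration 1, -0.33 without its replicate 3 and -0.09 with quantile normalisation. Rpl11 read 1.42, 1.56 and 2.77 at concentration 1 and 2.88, 2.85 and 2.62 at 1/5 (-0.86 ± 0.28), and Rps23, saturated on all 1/5 arrays, differed by -0.61 ± 0.17. Rps3a differed by -0.89 ± 0.34, and the 4 probes of Rps2 by -0.47 to -1.04. Of the 52 probes 29 were saturated on at least 1 of the 6 arrays, which compresses their differences. The 23 others had a median of -0.435, with 20 lower. That median was not taken without replicate 1 of concentration 1.

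The fibroblast markers gave 3 of 8 higher and a median of -0.19, the 5 smooth muscle markers -0.20, the 5 epicardial and neural crest markers -0.47, the 4 endothelial markers -0.04, the 8 macrophage markers 0.04 and the 4 erythroid markers -0.10. With the mean of a gene's probes the median was 0.03 for the smooth muscle and 0.06 for the epicardial and neural crest markers, against -0.20 and -0.47 with the brightest probe. Without replicate 3 of concentration 1 these medians were 0.03 and -0.61. Left-out arrays moved the smooth muscle median between -0.38 and 0.09. With no filter on dim probes the epicardial and neural crest median was 0.00, and it was -0.26 without replicate 2 of concentration 1 and -0.29 without replicate 1 of 1/5. Summed fibroblast signal was 16.5, 19.4 and 23.2 at concentration 1 and between 21.9 and 23.5 at 1/5, so replicate 1 of concentration 1 was also lowest there. Of the smooth muscle genes, Tagln differed by -0.57 ± 0.23, Lmod1 by -0.20 ± 0.30, Cnn1 by 0.19 ± 0.29 and Smtn by 0.20 ± 0.37. Of the epicardial and neural crest genes, Upk3b differed by -0.53 ± 0.34 and Sox10 by 0.37 ± 0.29. The part of cell composition in the differences above was not tested.

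**Figure D5:**
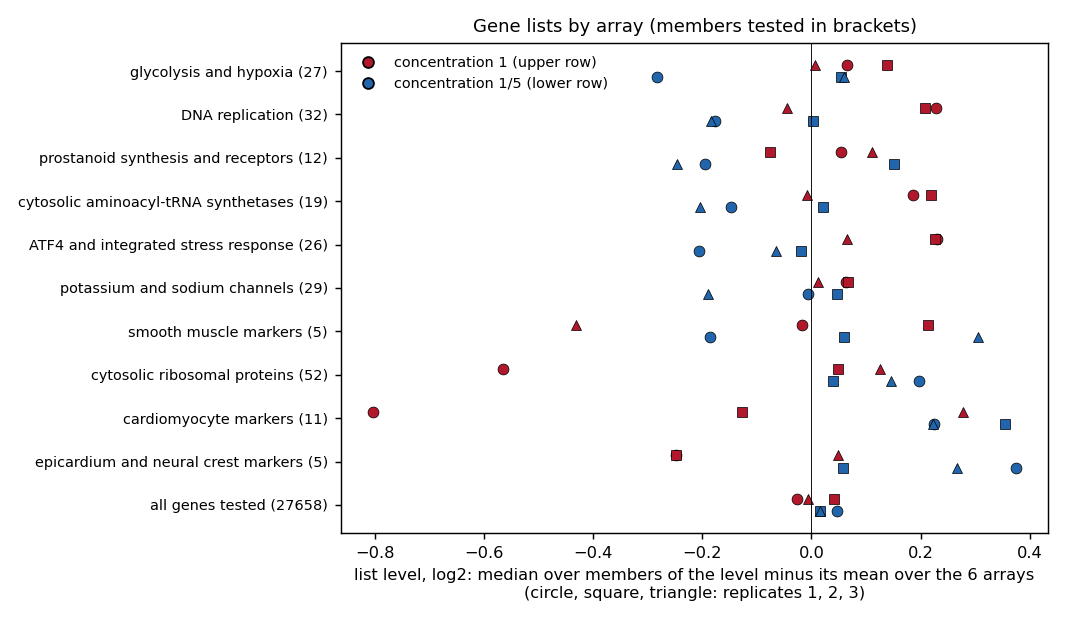
Level of the 10 gene lists, and of all genes, on each array (x axis, log2, median over members of the level minus its mean over the 6 arrays), with concentration 1 above 1/5 in each pair of rows. The groups do not overlap for the ATF4 and integrated stress response list. For the epicardial and neural crest markers they part narrowly, at 0.048 for the highest concentration 1 array and 0.057 for the lowest 1/5 array. Replicate 1 of concentration 1 is lowest for the cardiomyocyte markers at -0.80 and the ribosomal proteins at -0.56.

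The other lists had medians within 0.15 of that of all genes. Endoplasmic reticulum chaperones (8 of 18 higher, median -0.06), cytosolic heat shock proteins (8 of 18, -0.06), NRF2 targets (13 of 23, 0.06), cholesterol synthesis (11 of 22, -0.03), fatty acid oxidation (16 of 25, 0.05), the respiratory chain (20 of 45, -0.06) and p53 targets (10 of 22, -0.03) are examples. The carbonic anhydrases, which celecoxib also inhibits through its sulfonamide group, were split 4 to 4 with a median of -0.01.

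The concentration effect at 24 h was set against that at 6 h in the same fit. No gene of 27656 differed between the times at an adjusted p of 0.05 in limma (0%), and 834 had an unadjusted p below 0.05. All 1/5 arrays of 6 h were scanned on the second day, so this contrast rests on the scan day term. Of the 28 named genes 19 had the same direction at 6 h. The same share over all genes was not taken, so this count is a description and no sign of agreement between times. Nap1l3 differed by 0.00 ± 0.22 at 6 h and Slc7a5 by 0.42 ± 0.33.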

How the data were processed

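Per the file headers, the authors scanned 20 arrays and extracted an intensity per spot with version 9.5.3.1 of Agilent's software; these files are deposited. The authors also deposited a value table of linear ratios, which served as an alternative. The processed signal was taken to log2 and the 75th percentile of the array subtracted. Spots marked as outliers were left out, spots of a probe averaged, and probes kept if well above background on every array of a group (31776 of 41012). The brightest kept probe stood for a gene. Probes were named through RefSeq accession (10735), symbol (9300), gene number (1910) or another accession (65); 19002 kept the name in the file. Of the genes tested, 12998 had a symbol. Values of 7 groups and a scan day term were fitted over all 20 arrays in limma 3.58.1 (R 4.3.3), with 12 residual degrees of freedom, two-sided tests and Benjamini-Hochberg adjustment. Genes were named by p, 14 in each direction, among those with a symbol, well above background on all 6 arrays and with groups that do not overlap, plus up to 4 members per list whose median lay 0.15 or more from that of all genes, and Ptgs1 and Ptgs2. The 3 tags that passed, genes named for replicate 3, and Trib3, Gdf15, Slc3a2, Asns, Nupr1, Ddit3, Atf4 and Wars1 fall outside that rule and were named after their values were seen. A few list members that the rule names are not reported here. The comparison, the lists and the rules were chosen with earlier results of these data known. Deviations from the group means correlated at -0.16, 0.17 and -0.05 between same-numbered arrays of both groups. Arrays with different numbers ran from -0.20 to 0.25. With 3 arrays per group this cannot tell if the replicate numbers pair them, and the main fit did not pair them. In simulated data with 200 of 27021 genes changed, this comparison recovered 12.5% of log2 changes of 1, 46% of 1.5, 75.5% of 2 and 89% of 3. Of the genes that passed, 10.7%, 7.1%, 5.6% and 4.8% were false. The simulated spread was that of the 20 arrays, independent between genes. It held no slide effect and no array like replicate 3 of concentration 1.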

Additional observations from a re-analysis of the deposited data

How the results depend on the processing

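The count of 4 genes became 2 with quantile normalisation, 7 with only probes well above background on all 6 arrays, 2 with the authors' value table and 1 without the scan day term. It became 0 with the 9 arrays of 24 h, the 6 arrays alone, slide as a fixed term and slide 3 alone, where limma left 3093, 2650, 1972 and 1547 genes at an unadjusted p below 0.05. Leaving out each array in turn gave 1 to 52 genes, the 52 without replicate 3 of concentration 1; without each other array of concentration 1 it was 3 (replicate 1) or 1 (replicate 2), and without each 1/5 array 1. With the replicate block it was 3, as BI296804 no longer passed, and it changed no other call. The difference between the times gave 0 to 1 genes over the left-out arrays, and 0 under the other alternatives. The number of lists at least 0.15 from all genes, or with a member that passed, was 10, and 6 to 17 over the left-out arrays. Of the alternatives of single genes, 1346 kept direction and side of the threshold, 9 newly passed, 40 no longer passed and 6 turned: Lmod1 to 0.054 with slide fixed and 0.054 within slide 3, Lmod1 to 0.026 without replicate 3 of concentration 1 and 0.094 without replicate 3 of 1/5, Cnn1 without replicate 1 of concentration 1 and Smtn without replicate 1 of 1/5. Over the left-out arrays Lmod1 ran from -0.38 to 0.094, Cnn1 from -0.014 to 0.45 and Smtn from -0.029 to 0.36. Of the list medians 694 stayed within the spread between arrays and 62 did not. The cause was not tested. Normexp background correction gave 5 genes, no filter 3, the 75th percentile over probes well above background on all 20 arrays 4, and slide as a random block 4. Leaving out untreated replicate 1 and 1/25 6 h replicate 3 together, chosen after seeing the data, gave 3.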
